A study of Mus musculus with 8 samples.

Results

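The 31 genes described here are germline and meiosis genes of the mouse, a list fixed by name: genes that build the synaptonemal complex or the meiotic chromosome axis, genes of the piRNA pathway, RNA-binding and transcription factors of germ cells, and proteins made mostly in testis. They were followed in male Bruce 4 C57BL/6J embryonic stem (ES) cells that were wild type in all groups. The cells were kept on dishes coated with LN511 (laminin-511, an extracellular matrix protein) or with gelatin, in 2i medium or in Std medium, and RNA was taken after 2 weeks. The 4 groups were thus LN511 2i, gelatin 2i, LN511 Std and gelatin Std, with 2 libraries each, which the design text calls biological replicates. All 8 libraries came from 1 cell line, and 2i medium is named for its inhibitors of MEK and GSK3. A gene's level is the sum of the FPKM (fragments per kilobase of transcript, scaled to the mapped fragments of the library) of its RefSeq transcripts. Of the 31 members, 30 had transcript rows, out of 22963 genes that did. Stk31, a kinase-related gene of the testis, had none.

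Germline genes are active in germ cells and kept silent in nearly all other cells. Many have CpG-rich promoters that carry DNA methylation in somatic cells, and in ES cells a Polycomb complex with MGA, MAX, E2F6 and PCGF6 binds many of them through E-box and E2F sites. The synaptonemal complex holds paired homologous chromosomes together in meiosis, and the piRNA pathway uses small RNAs and PIWI proteins to silence transposons. ES cells are not germ cells, and RNA of some germline genes is nevertheless detected in them at low levels. In RNA from whole cultures, fewer cells that express a gene and less RNA per cell cannot be told apart.

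Many members were low. The 4 genes Sycp2, Dpep3, Mei1 and Spo11 stayed under 1 FPKM in every library, and Spo11, the nuclease that cuts DNA to start meiotic recombination, was listed at 0 in all 8. Counting Spo11, 15 members were at 0 in at least 1 library, and 14 of the 30 reached 5 FPKM in at least 1. The highest levels belonged to Rpl39l (3.59 to 71.8 FPKM), Rpl10l (16.2 to 42.4 FPKM) and Hormad1 (7.77 to 29.2 FPKM). All other members stayed under 16 FPKM. The number of members at 1 FPKM or more was 14 and 12 in the LN511 2i libraries, 16 and 14 in gelatin 2i, 19 and 19 in LN511 Std, and 24 and 19 in gelatin Std. At this level the media did not overlap, and the share of all genes at 1 FPKM or more was not counted for each library. Members at 0 numbered 5 and 8 in LN511 2i and 7 and 10 in gelatin 2i. In Std they numbered 4 and 3 on LN511 and 1 and 5 on gelatin, so by zeros the media met at 5. The files hold no counts. The spacing of low values gave about 2230000 to 2680000 fragments per library, a 1.2-fold range, and 1 fragment on a transcript of 2000 bases was worth 0.186 to 0.224 FPKM. A member at 0.2 FPKM with a transcript of that length therefore rests on about 1 fragment, and a longer transcript on more. A value of 0 cannot be told from a low level at this depth.

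**Figure D1:**
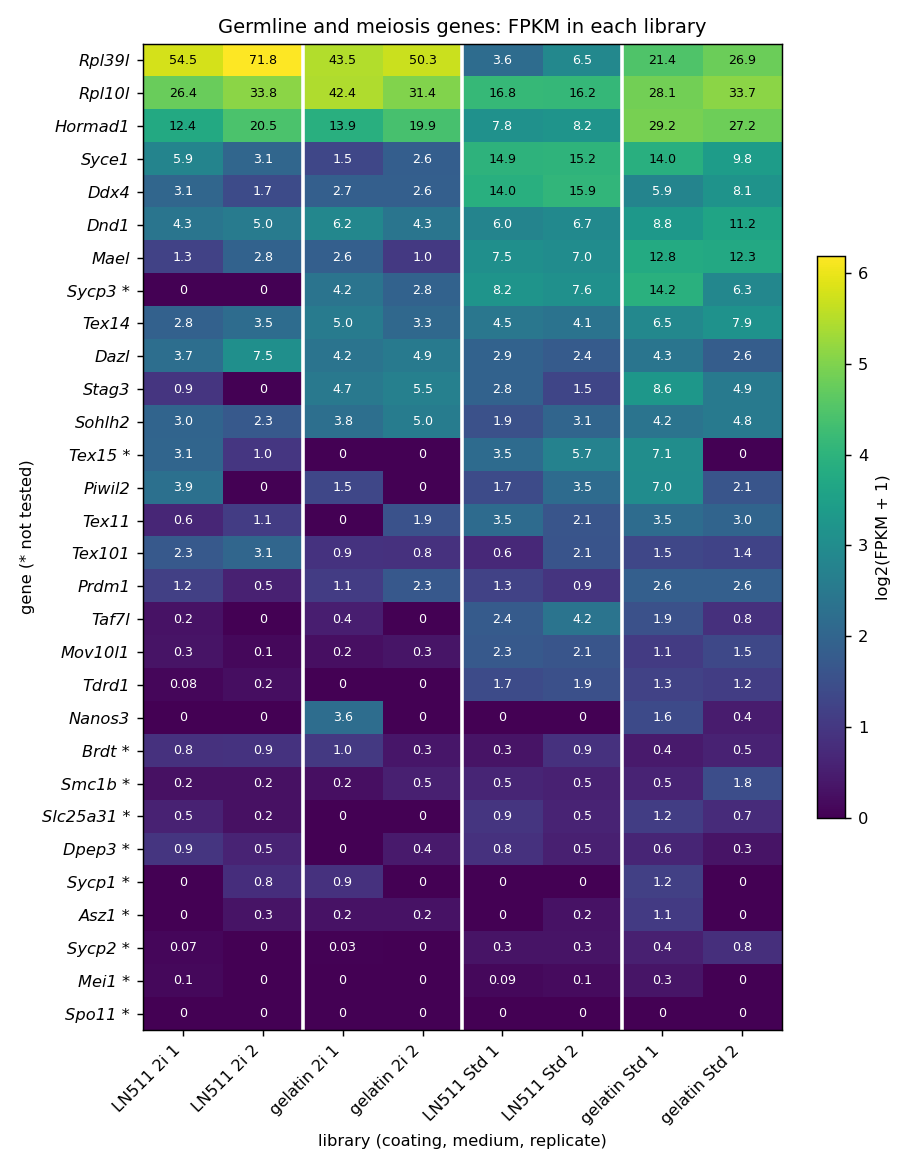
FPKM of the 30 members with transcript rows in the 8 libraries. Rows are genes ordered by their mean level, columns are libraries (coating, medium, replicate), the number in each cell is the FPKM, and the colour is log2(FPKM + 1). Asterisks mark the 11 members that were not tested. Most of the lower rows are at or near 0, while Rpl39l, Rpl10l and Hormad1 stay at 3.59 FPKM or more in every library.

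Genes were tested with limma on log2(FPKM + 1) where at least 2 libraries had 1 FPKM or more, and calls are at a Benjamini-Hochberg adjusted p under 0.05 over 10278 genes. Of the members, 19 were tested, 9 were below the filter (Sycp1, Sycp2, Asz1, Slc25a31, Dpep3, Brdt, Mei1, Smc1b and Spo11), and 2 (Sycp3 and Tex15) were set aside because of doubtful zeros. Taf7l, Mov10l1 and Tdrd1 passed the filter through Std libraries alone, so a change had to be present in them, and counts for the medium are also given for the other 16. Nanos3 passed through gelatin libraries alone, and counts for the coating are also given for the other 18.

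In 2i medium, Ddx4, Mael, Syce1 and Tdrd1 fell on both coatings, and Taf7l and Mov10l1 fell on LN511. On LN511, 6 of the 19 tested members fell and 2 rose (Rpl39l and Rpl10l), 42.1% of those tested, against 18.5% of all tested genes (9.95% lower and 8.58% higher). On gelatin, 4 fell and none rose, 21.1% of those tested, against 15.4% of all tested genes (7.2% lower and 8.2% higher). Of the 16 members that reached 1 FPKM in at least 1 library of each medium, 3 fell and 2 rose on LN511 (31.2%). On gelatin 3 of these 16 fell (18.8%). The median log2 fold change of the 19 was −0.38 on LN511 and −0.72 on gelatin, beside −0.04 and 0.00 over all genes. Without the 3 genes that passed through Std alone it was −0.28 on LN511 and −0.57 on gelatin. The gelatin share of the 16 was near the background of 15.4%. Counted by overlap of the libraries, 10 of the 19 had both LN511 2i values below both LN511 Std values and 5 above (32.0% and 27.7% of all tested genes), and on gelatin 13 were below and 1 above (29.3% and 29.9%). Of the 16, 7 were below and 5 above on LN511, and 10 were below and 1 above on gelatin.

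Ddx4 (chr13:112598333-112652633, GRCm38.p6), the mouse vasa homologue and an RNA helicase of the germ cell granule, had 3.10 and 1.68 FPKM in LN511 2i, 2.66 and 2.64 FPKM in gelatin 2i, 14.0 and 15.9 FPKM in LN511 Std, and 5.91 and 8.06 FPKM in gelatin Std. All 4 libraries in 2i lay below all 4 in Std, and the LN511 Std pair stood above the gelatin Std pair. On LN511 Ddx4 fell to a mean of 2.39 ± 1.00 FPKM in 2i, against 14.9 ± 1.37 FPKM in Std (SD, n = 2 each; log2 fold change −2.26, SE 0.29, limma adjusted p = 0.00331). That call held with each of the 8 libraries left out in turn, at limma adjusted p of 0.00731 to 0.0308. On gelatin the fall was smaller (log2 −1.12, SE 0.29, limma adjusted p = 0.0443). It missed the threshold without any 1 of the 4 gelatin libraries or of the 2 LN511 Std libraries, at up to 0.18. In every Std library the whole sum came from 1 of the 2 RefSeq transcripts of Ddx4.

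Mael (chr1:166201385-166238744), which encodes a piRNA pathway protein with an HMG box, had 1.32 and 2.83 FPKM in LN511 2i, 2.63 and 1.04 FPKM in gelatin 2i, 7.51 and 6.98 FPKM in LN511 Std, and 12.8 and 12.3 FPKM in gelatin Std. These levels correspond to about 4.3 to 10.1 fragments in the 2i libraries and 28.9 to 45.7 in the Std libraries. Unlike Ddx4, Mael was highest on gelatin in Std, and the Std groups did not overlap. Mean levels were 6.82-fold lower in 2i than in Std on gelatin (log2 −2.31, SE 0.37, limma adjusted p = 0.00911). On LN511 they were 3.49-fold lower (log2 −1.47, SE 0.37, limma adjusted p = 0.0368). The gelatin call was lost without gelatin Std replicate 1 or 2, at limma adjusted p of up to 0.0531. The LN511 call was lost without LN511 2i replicate 1 or any of the 4 Std libraries, at up to 0.144.

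Syce1 (chr7:140777229-140787854), a protein of the central element of the synaptonemal complex, had 5.94 and 3.10 FPKM in LN511 2i, 1.49 and 2.58 FPKM in gelatin 2i, 14.9 and 15.2 FPKM in LN511 Std, and 14.0 and 9.76 FPKM in gelatin Std. The media did not overlap, and within 2i the LN511 pair lay above the gelatin pair. Syce1 fell by 2.09 on the log2 scale in 2i on gelatin (SE 0.34, limma adjusted p = 0.0098), to a mean 5.84-fold lower than in Std. On LN511 it fell by 1.59 (SE 0.34, limma adjusted p = 0.0221), to a mean 3.33-fold lower. The call on gelatin was lost without gelatin 2i replicate 1 or gelatin Std replicate 1 (limma adjusted p up to 0.0602). The call on LN511 was lost without LN511 2i replicate 2 or either LN511 Std library (up to 0.0985).

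The other genes that fell were near 0 in 2i. Tdrd1 (chr19:56826171-56870012), a tudor domain protein that binds PIWI proteins, had 0.0829 and 0.169 FPKM in LN511 2i, 0 and 0 FPKM in gelatin 2i, 1.68 and 1.87 FPKM in LN511 Std, and 1.31 and 1.19 FPKM in gelatin Std. Mov10l1 (chr15:88982891-89055152), a helicase needed to make piRNAs, had 0.253 and 0.103 FPKM in LN511 2i, 0.192 and 0.27 FPKM in gelatin 2i, 2.32 and 2.1 FPKM in LN511 Std, and 1.12 and 1.55 FPKM in gelatin Std. Taf7l (chrX:134460116-134476505), an X-linked relative of the general transcription factor subunit TAF7, had 0.226 and 0 FPKM in LN511 2i, 0.428 and 0 FPKM in gelatin 2i, 2.44 and 4.20 FPKM in LN511 Std, and 1.91 and 0.82 FPKM in gelatin Std. For Taf7l and Mov10l1 the 2i values amount to at most 2.9 fragments per library. In all 3 the media did not overlap on either coating, and the LN511 Std pair was the higher Std pair.

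Tdrd1 fell on LN511 (log2 −1.30, SE 0.24, limma adjusted p = 0.0134) and on gelatin (log2 −1.17, SE 0.24, limma adjusted p = 0.022). On LN511, Mov10l1 fell by 1.45 (SE 0.25, limma adjusted p = 0.0115) and Taf7l by 1.93 (SE 0.38, limma adjusted p = 0.0163) on the log2 scale. On gelatin neither passed, at log2 −0.92 for Mov10l1 (limma adjusted p = 0.0565) and −0.94 for Taf7l (limma adjusted p = 0.148). The Tdrd1 call on gelatin was lost without any 1 of the 4 gelatin libraries (limma adjusted p up to 0.0849), and on LN511 without LN511 2i replicate 1 or LN511 Std replicate 2 (up to 0.0577). The Mov10l1 call was lost without LN511 2i replicate 2 or LN511 Std replicate 1 (up to 0.0545), and the Taf7l call without LN511 2i replicate 2 or LN511 Std replicate 2 (up to 0.0823).

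**Figure D2:**
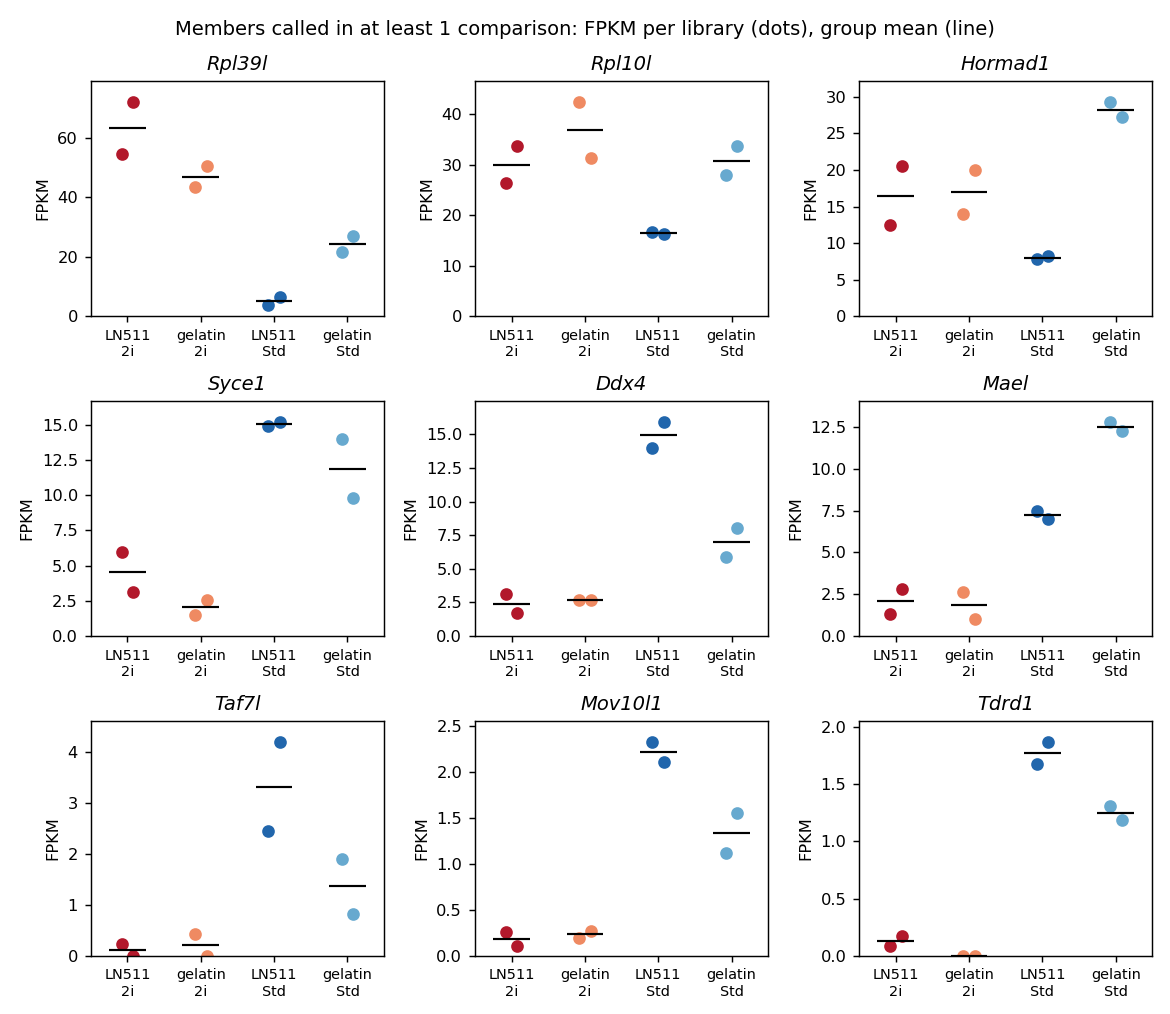
FPKM of the 9 members called in at least 1 of the 5 contrasts, by group (LN511 2i, gelatin 2i, LN511 Std, gelatin Std, left to right). Dots are libraries and lines are group means of 2 libraries, and each panel has its own axis from 0. Syce1, Ddx4, Mael, Taf7l, Mov10l1 and Tdrd1 are lower in both 2i groups, and Rpl39l is lowest in LN511 Std at 3.59 and 6.46 FPKM.

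Rpl39l and Rpl10l encode paralogs of ribosomal proteins, and both are known for expression in testis. Rpl39l (chr16:10170197-10174911) had 54.5 and 71.8 FPKM in LN511 2i, 43.5 and 50.3 FPKM in gelatin 2i, 3.59 and 6.46 FPKM in LN511 Std, and 21.4 and 26.9 FPKM in gelatin Std. The media did not overlap on either coating, with the direction opposite to that of Ddx4 and Mael, and LN511 Std stood far below the other 3 groups. On LN511 Rpl39l rose 12.6-fold in 2i, to a mean of 63.2 ± 12.2 FPKM, against 5.03 ± 2.03 FPKM in Std (SD, n = 2 each; log2 3.44, SE 0.26, limma adjusted p = 0.000524). The call held in all 8 fits with 1 library left out, at limma adjusted p of 0.00261 to 0.0057. On gelatin the difference was 0.93 (SE 0.26) and did not pass, at limma adjusted p = 0.0601, although it passed without LN511 Std replicate 1 or 2 (down to 0.038). The difference between the coatings in the medium change was 2.51 (SE 0.37) and did not pass either (limma adjusted p = 0.0762).

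Rpl10l (chr12:66283379-66284401) had 26.4 and 33.8 FPKM in LN511 2i, 42.4 and 31.4 FPKM in gelatin 2i, 16.8 and 16.2 FPKM in LN511 Std, and 28.1 and 33.7 FPKM in gelatin Std. Only the LN511 Std pair stood apart, below every other library. Rpl10l rose on LN511 by 0.82 on the log2 scale (SE 0.19, limma adjusted p = 0.0312), to a mean 1.82-fold that of Std. It missed the threshold without LN511 2i replicate 2 or either LN511 Std library (limma adjusted p up to 0.13). Its widely expressed parent Rpl10 stayed between 1195 and 1513 FPKM in all 8 libraries and was not called in any contrast. Of the stretches of 50 bases in the Rpl10l transcript, 7.6% also occur in the annotated gene Gm14460, so some Rpl10l fragments could be split between copies. Rpl39l shared none with another annotated gene.

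**Figure D3:**
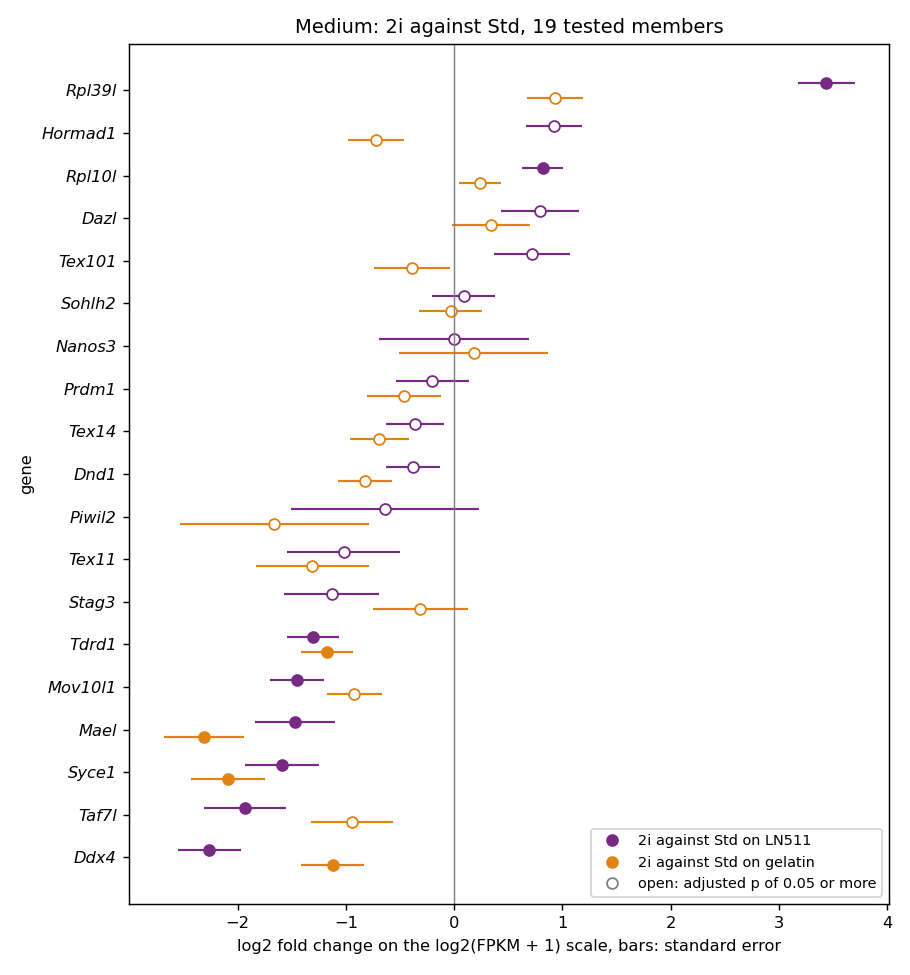
Log2 fold change of 2i against Std on the log2(FPKM + 1) scale for the 19 tested members, on LN511 (purple) and on gelatin (orange). Points are limma estimates, bars are 1 standard error, and filled points passed the adjusted p threshold of 0.05. Ddx4, Taf7l, Syce1, Mael, Mov10l1, Tdrd1 and Tex11 lie below −0.9 on both coatings, with Tex11 open on both. Rpl39l lies at 3.44 on LN511 and 0.93 on gelatin.

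Taking the 4 libraries of each medium together, 7 tested members had every 2i value below every Std value: Ddx4, Mael, Taf7l, Mov10l1, Tdrd1, Tex11 and Syce1. Among all tested genes 14.5% did so. Of the 16 members that reached 1 FPKM in at least 1 library of each medium, 4 did so. Rpl39l was the 1 tested member with the reverse order, which 13.2% of tested genes had. Of the 10 untested members above 0 in a library, Sycp2, Sycp3, Slc25a31 and Smc1b had every 2i value below every Std value, as did 5.64% of all untested genes above 0 in a library, at levels of up to 14.2 FPKM for Sycp3 and 1.75 FPKM or less for the rest.

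The promoters of the genes that fell are shown because most share a motif. Of the 31 members, 26 matched the RefSeq promoter table for GRCm38.p6, with windows of 300 bases (250 before to 50 after a start site). The members that fell are 6 of these 26, chosen here by their change in 2i. The letters CACGTG, an E-box that reads the same on both strands, were in the window of 5 of the 6 (all but Syce1) and of 7 of the other 20. Of the holders that fell, Tdrd1, Mov10l1 and Taf7l passed the filter through Std libraries alone, so a change had to be present in them. Of the other holders, Sycp1, Sycp3, Slc25a31, Stk31 and Brdt were not tested and could not be called. The filter thus shaped both counts, and no conclusion is drawn from their difference. The share over all members was 46.2%, beside 8.09% of the 27025 genes in the table and 11.8% of genes whose promoter holds at least 10 CpG dinucleotides. The lines below give up to 12 bases either side of the box, 5′ to 3′ on the gene's strand, with the box in capitals. They lie at chr13:112652322-112652351 (− strand), chr1:166238950-166238979 (−), chr19:56826186-56826208 (+), chr15:88982744-88982765 (+) and chrX:134476522-134476551 (−). The Mov10l1 and Tdrd1 lines are shorter where the stretch of 250 bases before the start ends.
Ddx4: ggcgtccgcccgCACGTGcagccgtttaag
Mael: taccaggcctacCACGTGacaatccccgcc
Tdrd1: tggggctgcgcgCACGTGggagt
Mov10l1: ccttCACGTGctaaccgccaac
Taf7l: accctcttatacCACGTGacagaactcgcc

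The starts are those of the promoter table. In Ddx4 and Tdrd1 the box lies inside the gene span given above, so it is upstream of the table's start and not of the whole gene. The box began 29 bases before the start in Ddx4, 11 before 1 start of Tdrd1, 49 before in Taf7l, 223 before in Mael and 246 before in Mov10l1, so its place in the window differed. Longer stretches before the start of Mael (chr1:166238748-166238994, −) and Taf7l (chrX:134476506-134476740, −), which hold the box in capitals, are set against Syce1 (chr7:140787855-140788104, −), which fell and has no box, and Rpl39l (chr16:10169978-10170196, +), which rose and has none. Bases inside an annotated gene span or exon were left out.
Mael: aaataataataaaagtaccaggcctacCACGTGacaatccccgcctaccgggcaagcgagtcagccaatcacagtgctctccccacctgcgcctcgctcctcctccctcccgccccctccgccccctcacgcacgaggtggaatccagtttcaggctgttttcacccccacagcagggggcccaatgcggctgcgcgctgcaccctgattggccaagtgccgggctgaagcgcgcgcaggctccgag
Taf7l: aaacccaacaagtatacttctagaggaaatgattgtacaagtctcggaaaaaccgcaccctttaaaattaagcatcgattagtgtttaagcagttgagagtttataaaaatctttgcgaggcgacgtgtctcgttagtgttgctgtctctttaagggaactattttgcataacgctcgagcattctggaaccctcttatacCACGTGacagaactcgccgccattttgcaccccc
Syce1: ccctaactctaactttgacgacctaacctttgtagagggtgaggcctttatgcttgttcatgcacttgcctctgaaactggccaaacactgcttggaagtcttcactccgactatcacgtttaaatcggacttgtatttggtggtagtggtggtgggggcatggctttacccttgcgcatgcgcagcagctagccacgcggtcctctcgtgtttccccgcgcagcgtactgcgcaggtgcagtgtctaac
Rpl39l: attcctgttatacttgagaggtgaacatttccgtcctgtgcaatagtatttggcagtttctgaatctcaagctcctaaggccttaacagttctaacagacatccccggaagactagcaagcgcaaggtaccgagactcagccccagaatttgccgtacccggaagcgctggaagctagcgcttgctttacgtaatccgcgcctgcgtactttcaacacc

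The E2F motif GCGGGAA, or TTCCCGC on the other strand, does not overlap the E-box in its letters. It was in 8 of the 26 members (30.8%), beside 5.29% of all genes and 10.1% of genes with at least 10 CpG. Among the 6 that fell only Ddx4 had it, 136 bases before the start. The other holders were Sycp3, Rpl10l, Slc25a31, Hormad1, Stag3, Tex14 and Smc1b. At least 10 CpG dinucleotides were found in 24 of 26 members (92.3%), against 45.8% of all genes, and the median was 20 in members against 8 in all genes. Ddx4 had the most (38), and Nanos3 (3) and Mei1 (8) the fewest. The members that fell had 14 to 38. A match of letters is a description and not a binding site, and DNA methylation was not measured here.

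**Figure D4:**
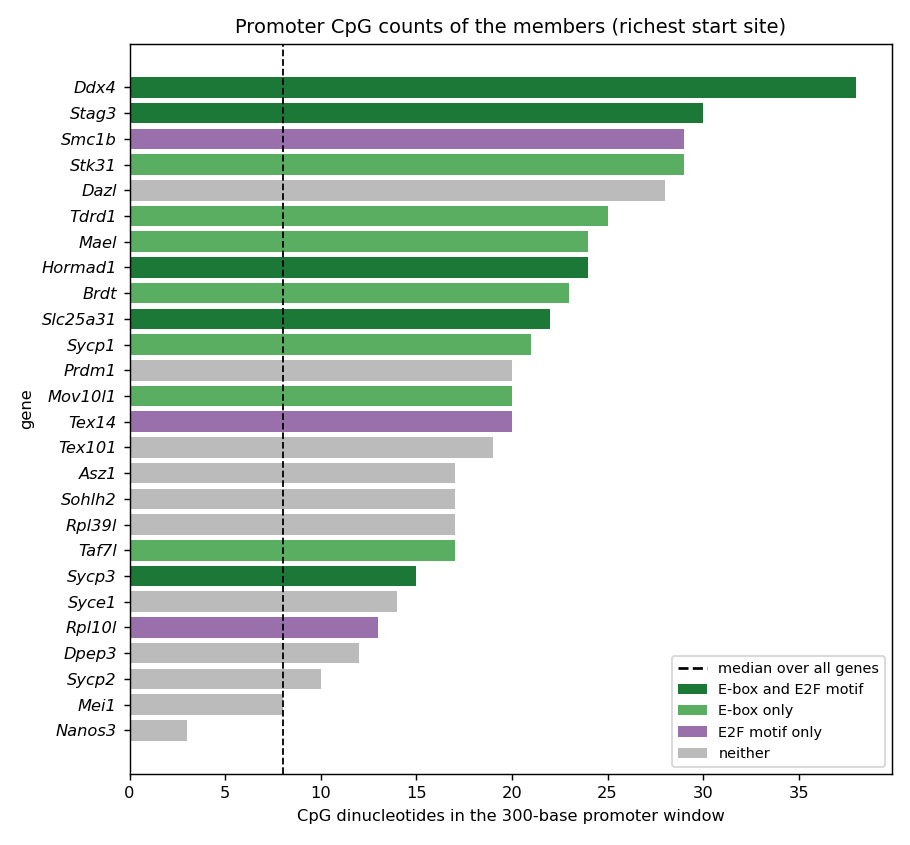
CpG dinucleotides in the 300-base promoter window of the 26 members with an entry, using the start site with the most CpG. Colours show whether the windows of the gene hold the E-box, the E2F motif, both or neither, and the dashed line is the median of 8 over all genes. The bars run from 3 in Nanos3 to 38 in Ddx4, and 24 of 26 reach at least 10.

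The coating was compared within each medium. In Std, Rpl39l and Hormad1 were lower on LN511 than on gelatin and no member was higher, so 10.5% of the 19 were called, against 2.1% of all tested genes (1.54% higher and 0.564% lower). The median of the 19 was −0.58, beside 0.05 over all genes. Of the 18 members that reached 1 FPKM in at least 1 library of each coating, 11.1% were called, with a median of −0.56. In 2i, limma called no member and 0.0195% of all genes, and 3 of the 19 had an unadjusted p under 0.05, as did 11.9% of all tested genes. No member passed the test of the difference in the medium change between the coatings, which 0.185% of all genes passed (0.0486% higher and 0.136% lower), and 3 of the 19 had an unadjusted p under 0.05, as did 12.2% of all tested genes. By overlap, 10 of the 19 had both LN511 values below both gelatin values in Std and 5 above (20.7% and 28.7% of all tested genes), and in 2i 2 were below and 4 above (20.7% and 22.2%). Without Nanos3, 9 of 18 were below and 5 above in Std, and the counts in 2i were the same. These comparisons share libraries with those of the medium.

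Hormad1 (chr3:95559677-95587863), a protein of the meiotic chromosome axis, had 12.4 and 20.5 FPKM in LN511 2i, 13.9 and 19.9 FPKM in gelatin 2i, 7.77 and 8.19 FPKM in LN511 Std, and 29.2 and 27.2 FPKM in gelatin Std. The 2i groups overlapped and lay between the Std groups, which stood apart. In Std the LN511 mean was 3.54-fold lower than the gelatin mean (log2 −1.70, SE 0.26, limma adjusted p = 0.0331). The medium difference was 0.92 on LN511 (limma adjusted p = 0.0551, and 0.0299 without LN511 2i replicate 1) and −0.72 on gelatin (limma adjusted p = 0.12), and the test of the difference between the coatings gave 1.65 (SE 0.37, limma adjusted p = 0.179). Of the stretches of 50 bases in its transcripts, 22.9% occur in other annotated genes, mostly Gm15529, and how much these copies add to or take from its level was not tested.

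In Std, Rpl39l was 4.8-fold lower on LN511 than on gelatin (log2 −2.09, SE 0.26, limma adjusted p = 0.019), with the values given above. The Hormad1 call was lost without any library except those of LN511 2i (limma adjusted p up to 0.148), and the Rpl39l call without LN511 Std replicate 1 or any of the 4 gelatin libraries (up to 0.0986). Ddx4 was higher on LN511 in Std by 1.01 and did not pass (SE 0.29, limma adjusted p = 0.155), and Rpl10l was lower by 0.86 and did not pass (limma adjusted p = 0.0908). Summed levels of 8 trophoblast marker genes were 180 to 186 FPKM in LN511 Std, against 22.9 to 26.6 FPKM in gelatin Std, and 33.5 to 43.6 FPKM in 2i on either coating. Of the 7 tested markers, Krt8, Krt18 and Hand1 were called higher in LN511 Std than in gelatin Std, and none lower. Hand1 was at 0 in every 2i library and passed the filter through the LN511 Std libraries alone. A higher level there therefore had to be present in it. The Hand1 call was lost without any 1 of the 8 libraries and the Krt18 call without any 1 of the 4 Std libraries. Hand1 had 3.12 and 2.35 FPKM in LN511 Std, against 0.487 and 0 FPKM in gelatin Std, and Gata3 had 2.33 and 1.77 FPKM in LN511 Std, against 0.409 and 0.128 FPKM in gelatin Std and was not called. Most of the sum in LN511 Std was Krt8 and Krt18, while Elf5 was at 0 in both Std groups and Cdx2 was at 0.597 FPKM or less in both. The part of these cells or genes in the member values was not tested.

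**Figure D5:**
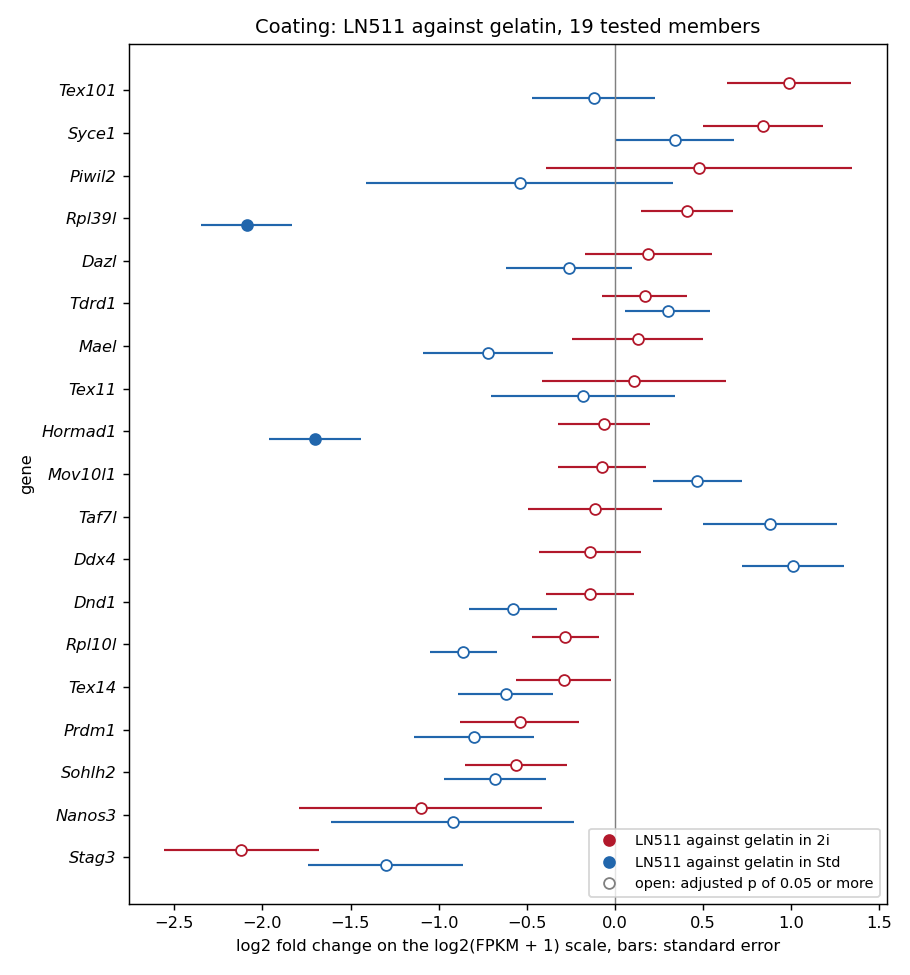
Log2 fold change of LN511 against gelatin on the log2(FPKM + 1) scale for the 19 tested members, in 2i (red) and in Std (blue). Points are limma estimates, bars are 1 standard error, and filled points passed the adjusted p threshold of 0.05. Only Rpl39l (−2.09) and Hormad1 (−1.70) in Std are filled, and Stag3 is the lowest point in 2i at −2.12.

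The meiotic cohesin genes were not called in any contrast. Stag3, a meiosis-specific cohesin subunit, had 0.946 and 0 FPKM in LN511 2i, 4.69 and 5.46 FPKM in gelatin 2i, 2.82 and 1.45 FPKM in LN511 Std, and 8.64 and 4.86 FPKM in gelatin Std. All 4 LN511 libraries were below all 4 gelatin libraries, an order that 1.76% of tested genes had, and that Sohlh2, a transcription factor of spermatogonia, also had (1.90 to 3.06 FPKM on LN511, against 3.80 to 5.03 FPKM on gelatin). No tested member had the reverse order, which 2.7% of tested genes had. The difference for Stag3 was −2.12 in 2i (SE 0.44, limma adjusted p = 0.159) and −1.30 in Std (SE 0.44, limma adjusted p = 0.222). Smc1b, another meiotic cohesin subunit, was at 0.192 to 0.451 FPKM in 2i and 0.493 to 1.75 FPKM in Std and was below the filter.

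Of the other synaptonemal complex genes, Sycp3, a lateral element protein, was listed at 0 in both LN511 2i libraries and had 4.24 and 2.85 FPKM in gelatin 2i, 8.25 and 7.61 FPKM in LN511 Std, and 14.2 and 6.33 FPKM in gelatin Std. Its 2i values lay below its Std values. It was not tested because 1 group was at 0, and 52.2% of its exon bases lie opposite exons of Chpt1, with the strandedness of the libraries not given in the sources used here. Sycp2, its partner in the lateral element, had at most 0.0709 FPKM in 2i and 0.25 to 0.769 FPKM in Std. Sycp1, the transverse filament protein, was at 0 in 5 libraries and at 0.767 to 1.25 FPKM in the other 3. Mei1, needed for meiotic DNA breaks, reached at most 0.271 FPKM.

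Recombination genes were low and uneven. Tex11, an X-linked gene of meiotic crossing over, had 0.592 and 1.15 FPKM in LN511 2i, 0 and 1.93 FPKM in gelatin 2i, 3.51 and 2.1 FPKM in LN511 Std, and 3.55 and 2.96 FPKM in gelatin Std. The media did not overlap, yet the difference did not pass on gelatin (log2 −1.31, SE 0.52, limma adjusted p = 0.149) or on LN511 (log2 −1.02, SE 0.52, limma adjusted p = 0.234), although it passed on gelatin without gelatin 2i replicate 2 (limma adjusted p = 0.0437). Tex15, a large protein of meiotic recombination and piRNA-directed silencing, had 3.05 and 0.978 FPKM in LN511 2i, 0 and 0 FPKM in gelatin 2i, 3.51 and 5.71 FPKM in LN511 Std, and 7.13 and 0 FPKM in gelatin Std, and was set aside for its zeros.

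Germ cell regulators were not called in any contrast. Dazl, an RNA-binding translation factor, had 3.67 and 7.48 FPKM in LN511 2i, 4.18 and 4.88 FPKM in gelatin 2i, 2.85 and 2.45 FPKM in LN511 Std, and 4.33 and 2.56 FPKM in gelatin Std, so that the media overlapped on gelatin and not on LN511 (log2 0.79, SE 0.36, limma adjusted p = 0.187). Dnd1, an RNA-binding protein of primordial germ cells, had 4.26 to 6.25 FPKM in 2i and 5.96 to 11.2 FPKM in Std, with log2 −0.82 on gelatin (SE 0.25, limma adjusted p = 0.0752). Prdm1, the repressor that specifies primordial germ cells, stayed between 0.481 and 2.65 FPKM. Nanos3, needed for their survival, was at 0 in all 4 LN511 libraries and in gelatin 2i replicate 2, with 3.61 FPKM in gelatin 2i replicate 1 and 1.61 and 0.377 FPKM in gelatin Std. Tex14, a protein of germ cell bridges, had 2.78 to 4.99 FPKM in 2i and 4.11 to 7.87 FPKM in Std.

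The remaining members were low or scattered. Piwil2, a PIWI protein, had 3.88 and 0 FPKM in LN511 2i, 1.5 and 0 FPKM in gelatin 2i, 1.67 and 3.45 FPKM in LN511 Std, and 7.05 and 2.11 FPKM in gelatin Std, and the spread within pairs was as large as the differences. Asz1, another piRNA pathway gene, stayed at 1.08 FPKM or less. Tex101, a surface protein of germ cells, had 2.33 and 3.08 FPKM in LN511 2i, 0.883 and 0.829 FPKM in gelatin 2i, 0.629 and 2.06 FPKM in LN511 Std, and 1.47 and 1.38 FPKM in gelatin Std, and was not called. Slc25a31, a testis ADP/ATP carrier, was at 0.513 FPKM or less in 2i and 0.544 to 1.19 FPKM in Std. Brdt, a testis bromodomain protein, and Dpep3, a testis dipeptidase, stayed at 1.04 and 0.929 FPKM or less.

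A further 39 meiosis and piRNA genes outside the list, 19 of them tested, were mixed. On LN511 3 rose and 3 fell in 2i (31.6%, beside 18.5% of all genes, median log2 −0.04), and on gelatin none rose and 4 fell (21.1%, beside 15.4%, median −0.34). Ddx25, a testis RNA helicase, had 1.60 and 0.951 FPKM in LN511 2i, 0.758 and 1.30 FPKM in gelatin 2i, 7.08 and 11.0 FPKM in LN511 Std, and 3.65 and 4.74 FPKM in gelatin Std, and fell on both coatings (log2 −2.13 on LN511, limma adjusted p = 0.00721, and −1.36 on gelatin, limma adjusted p = 0.0365). The gelatin call was lost without any 1 of the 4 gelatin libraries, at limma adjusted p of up to 0.151. Meioc, a meiotic RNA regulator, fell on LN511 (log2 −1.86, limma adjusted p = 0.019), a call lost without LN511 2i replicate 2 or either LN511 Std library (up to 0.0952). Tdrd12, of the piRNA pathway, ran the other way on LN511, with 25.7 and 27.5 FPKM in 2i and 8.17 and 12.8 FPKM in Std (log2 1.29, limma adjusted p = 0.0081).

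Of 9 tested factors that act in primordial germ cells, several of them also in ES cells, 5 rose and 1 fell on LN511 in 2i (66.7%, beside 18.5% of all genes, median log2 0.57), and 6 rose and 1 fell on gelatin (77.8%, beside 15.4%, median 1.19). Kit, a growth factor receptor, averaged 33.1 ± 2.99 FPKM in LN511 2i, against 2.23 ± 1.40 FPKM in LN511 Std, and 44.6 ± 0.958 FPKM in gelatin 2i, against 4.03 ± 0.347 FPKM in gelatin Std (SD, n = 2 each). Alpl, alkaline phosphatase, and Zfp42, a marker of naive ES cells, also rose on both coatings (log2 1.34 to 2.67). Kit, Alpl and Zfp42 moved in the direction opposite to Ddx4, Mael and Syce1. Lin28a moved in the same direction as those 3 and fell on both coatings (log2 −1.57 on LN511 and −0.80 on gelatin). Its gelatin call was lost without gelatin 2i replicate 1 or either gelatin Std library. Ifitm1 was also lower (log2 −1.25 on LN511 and −0.35 on gelatin) and was not called.

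Repressors known to bind germline promoters were mostly not called. Of 17 tested, 2 rose and 1 fell on LN511 (17.6%, beside 18.5% of all genes, median log2 0.01) and 3 rose and 1 fell on gelatin (23.5%, beside 15.4%, median −0.03). Pcgf6 (32.4 to 39.0 FPKM), Max (28.9 to 37.8 FPKM) and E2f6 (8.63 to 19 FPKM) were not called in any contrast. Mga, at 0 in 3 libraries, was set aside because its LN511 Std replicates were at 5.66 and 0 FPKM. Hdac1, a histone deacetylase, and Wdr5, a chromatin adaptor, rose on both coatings by 0.52 to 0.69 on the log2 scale. Tfdp1, a partner of E2F proteins, fell on LN511 (log2 −0.75, limma adjusted p = 0.0181), a call lost without LN511 2i replicate 2 or either LN511 Std library (up to 0.0968).

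Among 10 DNA methylation and demethylation enzymes, 7 were tested, and 4 fell and 1 rose on each coating (71.4%, beside 18.5% of all genes on LN511 and 15.4% on gelatin, median log2 −0.76 on LN511 and −0.57 on gelatin). Dnmt3a, a de novo methyltransferase, had 5.58 and 4.42 FPKM in LN511 2i, 4.41 and 4.68 FPKM in gelatin 2i, 82.4 and 87.2 FPKM in LN511 Std, and 75.6 and 75.1 FPKM in gelatin Std (log2 −3.85 on LN511 and −3.78 on gelatin). Dnmt3b, Dnmt3l and Hells fell as well, and Uhrf1, the partner of the maintenance enzyme, rose. The Dnmt3b call on LN511 was lost without any 1 of the 4 LN511 libraries (limma adjusted p up to 0.17), and the Hells call on gelatin without any 1 of the 4 gelatin libraries (up to 0.0954). Dnmt1, the maintenance enzyme, was at 49.5 to 84.5 FPKM and was not called, although it passed on LN511 without LN511 2i replicate 1 (limma adjusted p = 0.0142). Tet1 and Tet2 were set aside for their zeros. The part of these RNAs in the member values was not tested.

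Of 10 tested relatives of members that are widely expressed, 2 rose and 2 fell on LN511 (40.0%, beside 18.5% of all genes, median log2 −0.15), and 1 rose and 1 fell on gelatin (20.0%, beside 15.4%, median 0.05). Taf7 was at 47.2 to 48.7 FPKM in 2i and 30.2 to 39.8 FPKM in Std and rose on LN511 (log2 0.51, limma adjusted p = 0.0299), where Taf7l fell. The Taf7 call was lost without any 1 of the 4 libraries in 2i or without LN511 Std replicate 2 (up to 0.118). Mov10 rose on both coatings (log2 0.61 on LN511 and 0.72 on gelatin), where Mov10l1 was lower. Its LN511 call was lost without any 1 of the 4 LN511 libraries (up to 0.0948), and its gelatin call without gelatin Std replicate 1 or either gelatin 2i library (up to 0.073). Slc25a5 fell on both coatings (log2 −0.37 on LN511 and −0.33 on gelatin), calls that were lost without either LN511 Std library and, on gelatin, also without any 1 of the 4 gelatin libraries (up to 0.127), and Slc25a4 on LN511 (log2 −1.32, limma adjusted p = 0.00013). Smc1a, Stag1, Brd2 and Brd3 were not called, Stag2 was set aside, Dpep2 was below the filter, and Rpl39 and Dpep1 were not analysed here.

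The cells carried the markers of their label. All 6 ES cell markers were detected, with Pou5f1 at 949 to 1245 FPKM, and they summed to 1878 to 2302 FPKM in 2i and 1191 to 1387 FPKM in Std. The sum of 7 markers of feeder fibroblasts was 1.54 to 2.19 FPKM in 2i and 3.43 to 4.80 FPKM in Std. Postn and Lum were at 0 in every library and Col3a1 was at 0.0326 FPKM or less. The 2 tested ones were Thy1, which fell in 2i on both coatings (0.228 to 0.512 FPKM in 2i and 2.04 to 4.45 FPKM in Std), and Pdgfrb, which rose on gelatin (0.896 to 1.73 FPKM in 2i and at most 0.495 FPKM in Std). The Thy1 call on LN511 was lost without any 1 of the 4 LN511 libraries, and the Pdgfrb call without any 1 of the 4 gelatin libraries. The summed level of 6 markers of testis somatic cells was 0.348 to 2.57 FPKM in 2i and 2.06 to 3.91 FPKM in Std. The single markers differed in direction. Sox9 was above 0 only in 2i libraries, at 0.0987 FPKM or less. Amh, below the filter, had 0.239 to 0.547 FPKM in 2i and 0.237 FPKM or less in Std. Wt1, 1 of the 2 tested, had 0.0639 and 0 FPKM in gelatin 2i, against 1.44 and 2.20 FPKM in gelatin Std, and fell on gelatin (log2 −1.44, limma adjusted p = 0.0349), as Ddx4, Mael, Syce1 and Tdrd1 did. That call held only without LN511 Std replicate 1 or 2. Thy1 passed the filter through Std libraries alone, Wt1 through gelatin Std alone, Hand1 through LN511 Std alone, and Pdgfrb through 2i libraries alone. A change of the medium therefore had to be present in them. The single markers named were chosen after their values were seen. The sum of 8 primitive endoderm markers was 12.2 to 13.2 FPKM in LN511 2i, 4.83 to 5.27 FPKM in gelatin 2i, 17.6 to 19.7 FPKM in LN511 Std, and 7.90 to 8.03 FPKM in gelatin Std. Most of that sum was Col4a1 in every library. It had 11.0 and 10.5 FPKM in LN511 2i, 3.27 and 3.96 FPKM in gelatin 2i, 13.2 and 15.2 FPKM in LN511 Std, and 6.52 and 5.98 FPKM in gelatin Std. Dab2 reached at most 1.93 FPKM and Sox7 at most 1.55 FPKM. Gata4, Gata6, Sox17, Pdgfra and Foxa2 stayed at 0.863 FPKM or less and were below the filter. Summed levels of 8 markers of 2-cell-like cells were 19.1 and 27.6 FPKM in LN511 2i, 6 and 11.7 FPKM in gelatin 2i, 6.61 and 9.45 FPKM in LN511 Std, and 11 and 14.4 FPKM in gelatin Std. Their part in the member values was not tested.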

How the data were processed

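RNA-seq of 8 libraries was used, grouped by the culture condition in the labels. The authors deposited FPKM values for genes and for transcripts. TopHat2 2.1.1, Cufflinks 2.1.1 and build mm10 are named in the submitters' processing notes, while for counting settings, annotation and strandedness the sources used here give nothing. Zeros in the deposited gene table were unreliable: of 52481 sums of transcripts at 1 FPKM or more, 47.3% stood at 0 in it, including 42 of 123 such member values. A gene's value was therefore the sum of its RefSeq transcripts (31786 of 32688 rows matched a gene). The 21844 assembled rows were left out, so FPKM given to them is missing from the sums.

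log2(FPKM + 1) was fitted with limma 3.58.1 in R 4.3.3 (empirical Bayes with a mean trend), with 1 mean per group over all 8 libraries and 4 residual degrees of freedom. On this scale fold changes of low genes are understated. The filter of 1 FPKM in 2 libraries passed 11244 genes. Doubtful zeros removed 836 of them (a zero beside a replicate of 5 FPKM or above) and 130 more (a whole group at 0 where the mean of a different group reached 5), and 10278 were tested. Adjusted p-values are Benjamini-Hochberg within each of 5 contrasts. The fit was tested on simulated data. Changes were placed there only in genes above a set mean level and no filter was applied, so the check does not cover low members. Replicates correlated at 0.959 to 0.964 and libraries of different groups at 0.907 to 0.955. Promoter windows are RefSeq's for GRCm38.p6, with motifs searched on both strands. The members, lists, tests and markers were chosen with earlier results of these data known. All members are named, and of each other list the 3 called genes with the lowest adjusted p for the medium, every relative, and a fixed set of methylation enzymes and repressors, except 1 relative that is not reported here.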

Additional observations from a re-analysis of the deposited data

How the results depend on the processing

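The number of members called in 2i against Std on gelatin was 4. It was 3 with a pseudocount of 0.1, 6 with no filter, 3 with doubtful zeros kept, 4 with quantile normalization and 4 with only the 4 libraries of the comparison (Rpl39l in place of Ddx4), but 0 in the deposited gene table, and 0 to 4 with 1 library left out. It was 0 without gelatin Std replicate 1, and 1 without gelatin Std replicate 2 or without gelatin 2i replicate 1. On LN511 the number was 8. It was 7 with a pseudocount of 0.1 or with no filter, 8 with doubtful zeros kept, 9 with quantile normalization, 5 with only the 4 libraries and 3 in the gene table. It ranged from 3 to 8 with 1 library left out, with 4 without LN511 2i replicate 2, 4 without LN511 Std replicate 1 and 3 without LN511 Std replicate 2. For LN511 against gelatin in Std it was 2, but 0 with only the 4 libraries and 0 to 2 with 1 library left out. It was 0 without LN511 Std replicate 1 or any 1 of the 4 gelatin libraries, and 1 without LN511 Std replicate 2. The gene table also called 2 there, other genes than Rpl39l and Hormad1. In 2i no alternative called a member, and the interaction was 0 in every alternative except the gene table, where it was 2. Over all genes the gene table called 273 on gelatin and 336 on LN511, against 1583 and 1905.

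In the deposited gene table, where zeros stand for expressed genes, Ddx4 reversed to 0.93 on gelatin and 1.02 on LN511, since its 4 Std values are listed at 0 there. Tex14 reversed to 2.4 for LN511 against gelatin in Std and to −2.4 in the interaction, and the Syce1 interaction reversed to −4. Over the single members, 1305 values under an alternative stayed on their side of the threshold, 66 lost a call and 10 gained one. A further 5 reversed in direction with a call in either fit. Changes of direction where neither fit made a call are counted within the 1305.

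With the replicate number as a block, the members called were 4 on gelatin (Mael, Syce1 and Tdrd1 lower and Rpl39l higher, with Ddx4 lost), 6 on LN511, 2 for the coating in Std and 0 in 2i and in the interaction. Deviations of same-numbered libraries correlated at −0.02 to 0.02, so no effect shared by same-numbered libraries was seen. Such values cannot show whether the libraries were prepared in pairs. The comparison of protein sequences planned for Rpl10l and Rpl39l was not run. With 2 libraries per group and few fragments, low members such as Sycp2, Mei1 and Asz1 were below the filter and could not be tested at this depth. Their highest values rest on about 10.6 fragments for Sycp2, 2.4 for Mei1 and 4.2 for Asz1.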
